A study of Homo sapiens with 4 samples.

Results

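The mitochondrial ribosomal protein (MRP) mRNAs are the nuclear-encoded messengers of the proteins that build the mitochondrial ribosome. They were chosen by name, as every protein-coding gene of the deposited count table whose symbol is MRPL or MRPS followed by a number and at most 1 letter from A to C. This gave 78 of the 60676 genes in the table, on 21 chromosomes. RNA came from U2OS, an established human osteosarcoma cell line grown in standard serum-containing medium, with no treatment or genetic change given in the labels. Native nuclear RNA immunoprecipitation (nRIP) recovers, without crosslinking, the RNA that comes down with an antibody from a nuclear preparation. It was sequenced from 4 libraries, 1 per group: an LC3B antibody pull-down, a negative-control pull-down with IgG, and 1 input for each of these, taken without antibody. LC3B is a member of the ATG8 family, which becomes joined to lipid in the membranes of autophagosomes, and the study asked which mRNAs come down with it. Since each group held 1 library, no difference has a replicate check, no p-value was computed, and every interval covers counting error only.

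The mitochondrial ribosome translates the few mRNAs of the mitochondrial genome, all of which encode subunits of the respiratory chain and ATP synthase. Its RNAs are made inside the organelle, but its proteins are encoded in the nucleus, made in the cytosol and imported. Some of these proteins have counterparts in bacterial ribosomes, and others are found only in mitochondria. The large subunit forms peptide bonds, and the small subunit binds the mRNA and reads its codons.

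Of the 78 MRP genes, 51 encode large-subunit proteins and 26 small-subunit proteins. MRPS18A and MRPS30 are counted with the large subunit in spite of their names, because their proteins sit there. MRPS36 stands apart, since its product was later assigned to the 2-oxoglutarate dehydrogenase complex. By textbook classification 46 of the 78 have a bacterial counterpart, 29 are found only in mitochondria and 3 were left unclassed (MRPS18A, MRPS18B and MRPS36).

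Promoter sequences show what these genes carry upstream. RefSeq promoter windows (build GRCh38.p14, 250 bases before to 50 after the start) were found for 69 of the 78 genes, with 85 windows in all. The ETS-type motif CCGGAAGT, searched on both strands, lay in 12 of these windows (14.1%), in 14.3% of those of the cytosolic ribosomal protein genes, in 6.01% of those of protein-coding genes measured here and in 3.42% of all 35116 windows. The 150 bases before the start are shown for MRPL27, which held 2 copies, and for MRPL51 and MRPL20, both among the MRP genes with the highest level per length. Capitals mark the motif or its reverse complement. MRPL27 lies at chr17:50373185-50373334, MRPL51 at chr12:6493263-6493412 and MRPL20 at chr1:1407294-1407443, all on the minus strand. Starts are those of RefSeq, which can differ from the deposited gene bounds. The MRPL51 bases all lie inside the deposited gene (chr12:6491886-6493841), and part of the MRPL27 bases lie inside its gene (up to 50373207).
MRPL27: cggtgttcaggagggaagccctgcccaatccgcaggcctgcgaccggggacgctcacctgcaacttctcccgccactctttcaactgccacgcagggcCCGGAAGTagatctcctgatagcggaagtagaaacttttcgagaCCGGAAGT
MRPL51: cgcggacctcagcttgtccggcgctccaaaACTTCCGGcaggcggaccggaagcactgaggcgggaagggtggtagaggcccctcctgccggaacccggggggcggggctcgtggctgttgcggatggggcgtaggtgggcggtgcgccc
MRPL20: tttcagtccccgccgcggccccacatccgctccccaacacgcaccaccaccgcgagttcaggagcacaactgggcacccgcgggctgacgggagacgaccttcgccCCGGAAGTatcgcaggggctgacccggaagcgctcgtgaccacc

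Other motifs were no more frequent than in protein-coding genes or were rare. The SP1-type letters GGGCGG lay in 55.3% of the MRP windows against 63.0% of those of protein-coding genes measured here. Motifs of NRF1 (10 letters) and YY1 (11 letters) each lay in 1 MRP window (1.18%), before MRPL17 and MRPL36 respectively. The YY1 motif lay in 0.363% and the NRF1 motif in 1.63% of windows of protein-coding genes measured here. A match says only that the letters are there.

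The first bases from the RefSeq start separate these mRNAs from those of the cytosolic ribosome. Cytosolic ribosomal protein mRNAs are known for a terminal oligopyrimidine tract, a C at the start followed by further pyrimidines, through which their translation responds to growth signals. A C followed by 4 pyrimidines stood at the RefSeq start in 48 of 84 windows of cytosolic ribosomal protein genes (57.1%), in 6 of 85 MRP windows (7.06%) and in 5.10% of those of protein-coding genes measured here. Below are 30 bases before and 10 from the RefSeq start, with the first 5 letters from that start in capitals. They are given for the 3 MRP genes with the highest and the 3 with the lowest share in the LC3B pull-down over its input. Genes were ordered by the bound of the interval nearest to 1, among those with a single window (MRPS22, with several, was passed over). RPLP1 and RPLP0, cytosolic stalk proteins chosen by their high reads in the LC3B pull-down, are shown for comparison.
MRPL24: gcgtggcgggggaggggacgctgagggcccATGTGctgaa
MRPL55: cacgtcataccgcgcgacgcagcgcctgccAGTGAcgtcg
MRPS18A: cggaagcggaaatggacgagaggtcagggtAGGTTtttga
MRPL19: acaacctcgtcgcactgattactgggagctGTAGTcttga
MRPS35: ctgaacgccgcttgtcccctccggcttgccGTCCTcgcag
MRPL1: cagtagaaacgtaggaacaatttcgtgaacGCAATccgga
RPLP1: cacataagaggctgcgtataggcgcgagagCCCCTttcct
RPLP0: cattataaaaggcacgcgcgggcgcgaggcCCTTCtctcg

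These windows are chr1:156741079-156741118 for MRPL24, chr1:228109290-228109329 for MRPL55 and chr6:43687782-43687821 for MRPS18A, all on the minus strand. Those of the plus strand are chr2:75646753-75646792 for MRPL19, chr12:27710802-27710841 for MRPS35 and chr4:77862800-77862839 for MRPL1. RPLP1 lies at chr15:69452788-69452827 on the plus strand and RPLP0 at chr12:120201102-120201141 on the minus strand. At the RefSeq start none of the 6 MRP genes has a C, whether the gene was high or low with LC3B, and both cytosolic ones have 5 pyrimidines. A C at the start was rare in general, in 10.6% of all MRP windows and 11.7% of those of protein-coding genes measured here. The starts of MRPL24, MRPL55 and MRPS35 lie inside the deposited genes, whose outer bounds there are 156741590, 228109312 and 27710822.

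The 4 libraries held 10000914 to 10886762 counted reads. Genes of the mitochondrial genome took 22.8% (IgG) and 20.8% (LC3B) of them in the inputs, but 1.76% (IgG) and 0.774% (LC3B) in the pull-downs, so levels are given as CPM, the usual share of the library's reads, counted over reads outside that genome. The 15431 genes whose average over the 4 libraries reached 1 CPM were tested, and all 78 MRP genes were among them. The IgG pull-down stood apart, with 0 reads in 3043 of the tested genes (19.7%) against 54, 54 and 62 in the other libraries. Of 6 osteosarcoma and mesenchyme markers, SPARC, VIM, COL1A1 and RUNX2 passed the filter, while COL1A2 had at most 3 reads and TWIST1 had 0 in every library. Of 9 markers of other cell types, EPCAM (128 to 253 reads), CDH1 (at most 25) and GFAP (at most 18) passed, and ALB, CD3E, HBB, INS, PTPRC and TYR had at most 5 reads in any library. The nuclear RNA MALAT1 had 2573 and 2319 CPM in the IgG and LC3B inputs, 4233 with IgG and 883 with LC3B. NEAT1, also nuclear, had 95.4, 105, 118 and 46.1 CPM in the same order. How free the preparation was of other compartments was not tested.

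Every MRP gene was well covered in every library. The lowest count was 251 (IgG) and 258 (LC3B) reads in the inputs and 288 (IgG) and 252 (LC3B) reads in the pull-downs, and the median count per gene lay between 1013 and 1502.5 reads. Together the MRP genes took 1.14% (IgG) and 1.12% (LC3B) of the reads in the inputs, 1.45% with IgG and 1.05% with LC3B. The IgG pull-down is the one library whose share stood apart upward, with an exact binomial 95% interval of 1.44% to 1.45%. A share of a library cannot tell more of an mRNA in a pull-down from less of the other RNA in it, just as fewer cells and less RNA per cell cannot be told apart.

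Per length, on the deposited TPM scale, the most abundant MRP mRNA in the inputs was MRPL51, with a mean of 635 TPM, followed by MRPL33 at 601, MRPL13 at 543 and MRPL52 at 428. MRPL20 at 387 TPM, MRPL14 at 376, MRPS16 at 364 and MRPL40 at 342 came next. The lowest was MRPL44 at 20.0 TPM, a large-subunit protein related to ribonuclease III. In the LC3B pull-down MRPL51 reached 1178 TPM and MRPL33 912 TPM, while MRPL13 had 233 TPM. MRPL13 was thus among the leaders in the inputs (539 and 547 TPM) and in the IgG pull-down (568 TPM) but not with LC3B. These TPM were not rescaled for mitochondrial-genome reads, so inputs and pull-downs are not on one scale. In CPM, MRPL51 had 366 in the LC3B input and 575 with LC3B, MRPL33 223 and 258, and MRPL13 433 and 213. The transcript length used for MRPL13 was also 36.3% longer with LC3B, relative to protein-coding genes.

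**Figure D1:**
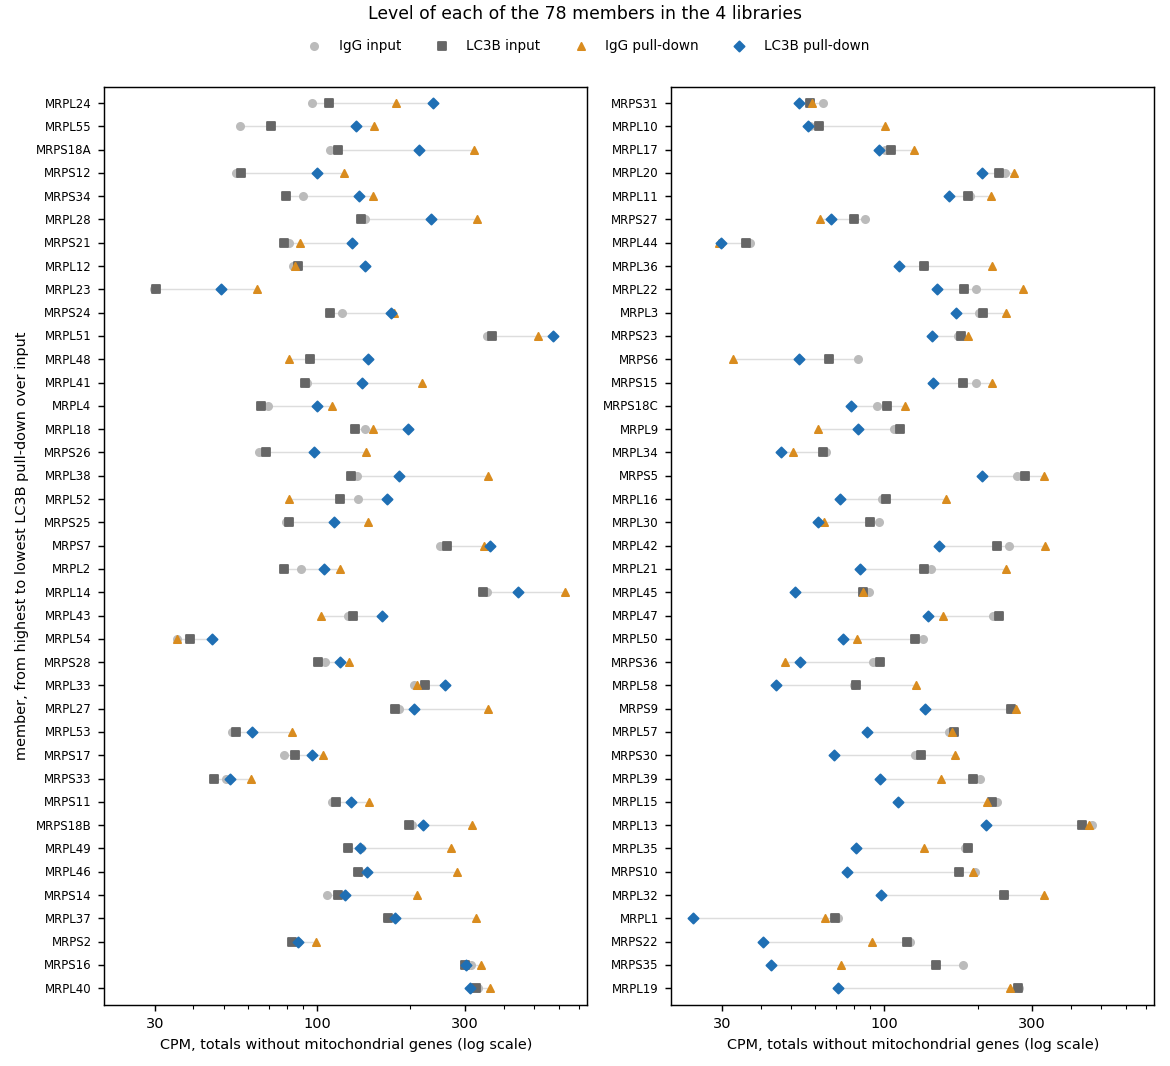
Level of each of the 78 MRP genes (members) in each input and each pull-down, in CPM of the reads outside the mitochondrial genome on a log scale, sorted from the highest to the lowest ratio of the LC3B pull-down to its input. The inputs nearly coincide for most genes, MRPL24 at the top moved from 109 to 237 CPM, and MRPL19 at the bottom from 271 to 70.9 CPM.

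The inputs set the scale of differences between libraries without antibody. The ratio of the LC3B input to the IgG input lay between 0.804 and 1.26 over the 78 genes, with an SD of 0.103 on the log2 scale across genes. A gene was called higher in a comparison if its whole 95% interval lay at or above 2, and called lower if the whole interval lay at or below 0.5. Between the inputs 0 MRP genes were called in either direction, where 0.136% of all tested genes were called higher and 0.156% lower, and 0.0279% of genes at 30 to 100 CPM lower. Across the same genes the log2 SD was 0.609 for the LC3B over the IgG pull-down, 0.689 for the LC3B pull-down over its input and 0.619 for the IgG pull-down over its input.

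With LC3B, most MRP mRNAs had a smaller share than in the IgG pull-down. The median log2 ratio, computed with 0.5 CPM added, was -0.41 over the 78 genes against 0.41 over all tested genes, and 62 of 78 (79.5%) lay below 1 against 39.0% of all tested genes. The summed MRP reads gave a ratio of 0.729 (95% interval 0.723 to 0.735). None was called higher, where 33.8% of all tested genes were, and 10 were called lower (12.8%), where 9.45% were. Of the 78 ratios, 44 lay below the range of the inputs, 24 within it and 10 above it.

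That background holds many genes of low count, which often had 0 reads in the IgG pull-down: 39.3% of tested genes under 10 CPM in the inputs and 16.5% of those at 10 to 30 CPM, but 2.85% at 30 to 100 CPM and 0% at 100 CPM or more. Every MRP gene lay in the upper classes. At 100 CPM or more, the median log2 ratio of the LC3B over the IgG pull-down was -0.63 for 49 MRP genes and -0.07 for all 2301 genes of the class. In that class 41 of 49 MRP genes lay below 1, against 53.4% of all, with 8 called lower (7.21% of all) and 0 higher (8.56% of all). At 30 to 100 CPM the median was -0.17 for 29 MRP genes and 0.16 for the 3580 genes of the class, with 21 of 29 below 1 against 43.6% of all. There 2 were called lower, where 6.56% of the class were, and 0 higher, where 20.9% were.

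The difference between the pull-downs is made up of both terms over the inputs. For IgG over its input the MRP median was 0.28 at 100 CPM or more and 0.26 at 30 to 100 CPM, against -0.13 and -0.25 for all genes of these classes. For LC3B over its input it was -0.20 and 0.18, against -0.13 and -0.09. The abundant MRP mRNAs thus lay above their class with IgG and close to it with LC3B.

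**Figure D2:**
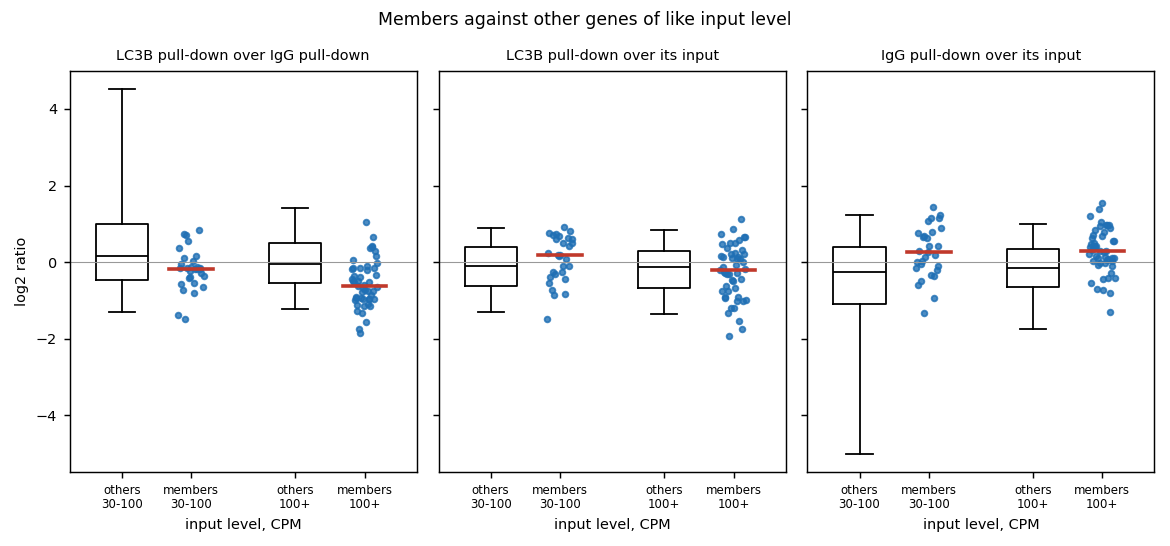
Log2 ratios of the MRP genes (members, points, with the median as a red bar) beside those of the other genes of the same input level (box, middle 50% with the median; whiskers, 5th to 95th percentile), for 3 comparisons and the classes of 30 to 100 CPM and 100 CPM or more. The MRP median lies below that of the other genes for the LC3B over the IgG pull-down (-0.17 and -0.63) and above it for the IgG pull-down over its input (0.26 and 0.28).

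The 10 genes called lower with LC3B than with IgG were, from the lowest ratio, MRPL19, MRPL32, MRPL21, MRPL58, MRPL1, MRPS10, MRPS30, MRPL16, MRPL42 and MRPL13, and 9 of them encode large-subunit proteins. MRPL19, whose bacterial counterpart lies where the subunits meet, had 271 CPM in both inputs, 255 with IgG and 70.9 with LC3B, a ratio of LC3B to IgG of 0.278 (0.256 to 0.302). It is low in the LC3B library alone. MRPL32, whose precursor is cut by an inner-membrane protease during ribosome assembly, had 243 and 244 CPM in the IgG and LC3B inputs, 327 with IgG and 97.5 with LC3B, a ratio of 0.298 (0.278 to 0.320). Unlike MRPL19, it lay above the inputs with IgG and below them with LC3B.

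MRPL21 and MRPL58 had the same pattern as MRPL32. MRPL21, a large-subunit protein with a bacterial counterpart, had 142 and 134 CPM in the IgG and LC3B inputs, 247 with IgG and 83.7 with LC3B, a ratio of 0.339 (0.314 to 0.367). MRPL58, a peptidyl-tRNA hydrolase built into the large subunit that releases peptides from stalled ribosomes, had 79.8 and 81.2 CPM in the inputs, 126 with IgG and 44.8 with LC3B, a ratio of 0.354 (0.318 to 0.395). MRPS10, a small-subunit protein, had 197 and 175 CPM in the inputs, 193 with IgG and 75.8 with LC3B, a ratio of 0.393 (0.361 to 0.427). For MRPS10, as for MRPL19, the IgG pull-down lay close to the inputs.

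Ordered by the lower bound of the interval, the highest ratios of LC3B to IgG were those of MRPL52 at 2.06 (1.90 to 2.25), MRPL48 at 1.80 (1.65 to 1.96), MRPL12 at 1.68 (1.54 to 1.83) and MRPL43 at 1.57 (1.45 to 1.70). In the same order MRPS6 at 1.64 (1.43 to 1.89), MRPS21 at 1.47, MRPL24 at 1.32 and MRPL18 at 1.30 followed. MRPL52, a mitochondria-only large-subunit protein, had 135 and 119 CPM in the IgG and LC3B inputs, 81.2 with IgG and 168 with LC3B. It was low with IgG and high with LC3B, and its interval crosses 2. MRPL12, which forms the stalk that recruits translation factors, had 83.4 and 86.6 CPM in the inputs, 84.9 with IgG and 143 with LC3B, so that only the LC3B library lay apart. Its stalk partner MRPL10 had 57.7 and 61.6 CPM in the inputs, 100.5 with IgG and 56.9 with LC3B, and here only the IgG library lay apart.

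Over its own input, the LC3B pull-down held the MRP mRNAs at about their input share. The median log2 ratio was -0.09 against 0.01 over all tested genes, 38 genes lay above 1 and 40 below, and the summed ratio was 0.941 (0.933 to 0.949). One direction here depends on the scaling: with mitochondrial-genome reads kept in the totals the median became 0.23, where that of all tested genes became 0.32. A single MRP gene was called higher (1.28%), where 1.40% of all tested genes were, and 7 were called lower (8.97%), where 4.48% were. At 100 CPM or more the counts were 1 higher and 6 lower of 49, where 1.13% and 10.3% of the class were called, and at 30 to 100 CPM 0 of 29 were called higher (1.2% of the class) and 1 lower (6.76% of the class).

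MRPL24, a large-subunit protein whose bacterial counterpart lies at the mouth of the peptide exit tunnel, was the gene called higher. It had 96.3 and 109 CPM in the IgG and LC3B inputs, 179 with IgG and 237 with LC3B, a ratio of LC3B to its input of 2.17 (2.02 to 2.35). The IgG pull-down was high too, at 1.86 (1.71 to 2.03) times its input. The call was lost when totals were scaled by TMM or median of ratios, or when libraries were thinned to one depth. The gene (ENSG00000143314) spans 4288 bases, chr1:156737303-156741590 in the deposited hg38 coordinates.

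Next over input with LC3B, ordered by the lower bound of the interval, were MRPL55 at 1.88 (1.71 to 2.07), MRPS18A at 1.81 (1.68 to 1.96), MRPS12 at 1.76 (1.58 to 1.96) and MRPL28 at 1.67 (1.56 to 1.79). MRPS12, a small-subunit protein whose bacterial counterpart takes part in accurate codon reading, had 55.0 and 57.1 CPM in the IgG and LC3B inputs, 122 with IgG and 100.3 with LC3B. With IgG the ratios of these 4 genes to input were 2.71, 2.92, 2.22 and 2.29. MRPS34, a small-subunit protein whose ratio lay between those of MRPS12 and MRPL28, had 1.71 (1.56 to 1.87) with LC3B and 1.69 (1.55 to 1.85) with IgG.

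The 7 genes called lower with LC3B than in its input were MRPL19, MRPS35, MRPS22, MRPL1, MRPL32, MRPS10 and MRPL35. MRPL19 had a ratio to its input of 0.262 (0.241 to 0.285), the lowest of the 78, beside 0.942 (0.889 to 0.997) with IgG. MRPS35, a mitochondria-only small-subunit protein, had 180 and 147 CPM in the inputs, 72.7 with IgG and 43.2 with LC3B. Its ratios to input were 0.293 (0.263 to 0.327) with LC3B and 0.404 (0.369 to 0.442) with IgG, both called lower. It was the one MRP gene called lower in both pull-downs.

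MRPS22, a mitochondria-only small-subunit protein mutated in inherited deficiency of respiratory chain complexes, had 121 and 118 CPM in the IgG and LC3B inputs, 91.2 with IgG and 40.7 with LC3B. Its ratio to input with LC3B was 0.344 (0.306 to 0.385). MRPL1, the protein of the stalk where spent tRNA leaves, had 71.3 and 69.3 CPM in the inputs, 64.5 with IgG and 24.3 with LC3B, a ratio of 0.350 (0.301 to 0.407). MRPL32 had a ratio of 0.399 (0.370 to 0.431), MRPS10 of 0.434 (0.398 to 0.473) and MRPL35, a large-subunit protein with a bacterial counterpart, of 0.436 (0.401 to 0.475). MRPL35 had 182 and 186 CPM in the inputs, 135 with IgG and 81.3 with LC3B, lower in both pull-downs than in either input.

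In the IgG pull-down, MRP mRNAs lay above their input more often than not, while most genes did not. The median log2 ratio was 0.27 against -0.43 over all tested genes, 55 of 78 lay above 1 (70.5%) against 38.7%, and the summed ratio was 1.27 (1.26 to 1.28). The calls were 6 higher (7.69%), where 9.69% of all tested genes were, and 2 lower (2.56%), where 33.6% were. With mitochondrial-genome reads kept in the totals they became 17 higher and 0 lower, which ends the calls of MRPS6 and MRPS35. Of the 15093 genes tested under those totals, 2355 were called higher and 4425 lower. The MRP median became 0.62, where that of all genes tested became -0.07. Within the input classes the calls were 3 higher and 1 lower in each, where 5.92% and 22.7% of genes at 30 to 100 CPM and 3.65% and 12.4% at 100 CPM or more were called.

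Genes called higher with IgG were MRPS18A, MRPL55, MRPL38, MRPL41, MRPL28 and MRPS26, of which MRPS26 encodes a small-subunit protein. MRPS18A had 110 and 117 CPM in the IgG and LC3B inputs, 321 with IgG and 212 with LC3B, a ratio of IgG to its input of 2.92 (2.72 to 3.15). MRPL38, a mitochondria-only large-subunit protein, had 134 and 129 CPM in the inputs, 355 with IgG and 184 with LC3B, a ratio of 2.64 (2.47 to 2.83). MRPL41, another mitochondria-only protein, had 92.9 and 91.8 CPM in the inputs, 218 with IgG and 139 with LC3B, a ratio of 2.34 (2.16 to 2.54). In these 3 genes both pull-downs lay above both inputs, and IgG above LC3B.

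The 2 genes called lower with IgG were MRPS6 at 0.395 (0.345 to 0.452) and MRPS35. MRPS6, a small-subunit protein with a bacterial counterpart, had 82.5 and 66.3 CPM in the IgG and LC3B inputs, 32.6 with IgG and 53.4 with LC3B. MRPS36 followed at 0.521 (0.464 to 0.585), MRPL9 at 0.566 (0.510 to 0.628) and MRPL52 at 0.601 (0.548 to 0.658). MRPS36 was low in both pull-downs, with 92.2 and 96.9 CPM in the inputs, 48.0 with IgG and 53.8 with LC3B.

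Set against their own inputs, the pull-downs moved the MRP genes partly together. Both ratios lay above 1 for 35 of the 78 genes and both below for 20, while 20 were above with IgG and below with LC3B and 3 were the reverse. Genes above with LC3B and below with IgG made up 3.85% of the MRP genes, 18.3% of the 5881 genes with input levels from 30 CPM up and 27.0% of all tested genes. The reverse made up 25.6%, 16.2% and 14.9%. Across the 78 genes Pearson's r between the log2 ratios was 0.563 and Spearman's rho 0.561, against 0.323 and 0.397 over the same 5881 genes. Genes are not independent replicates and each ratio rests on 1 library, so these are descriptions of the 4 libraries. No MRP gene had opposite calls, which were rare in general: 3 of the same 5881 genes and 55 of all 15431 tested genes had them.

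**Figure D3:**
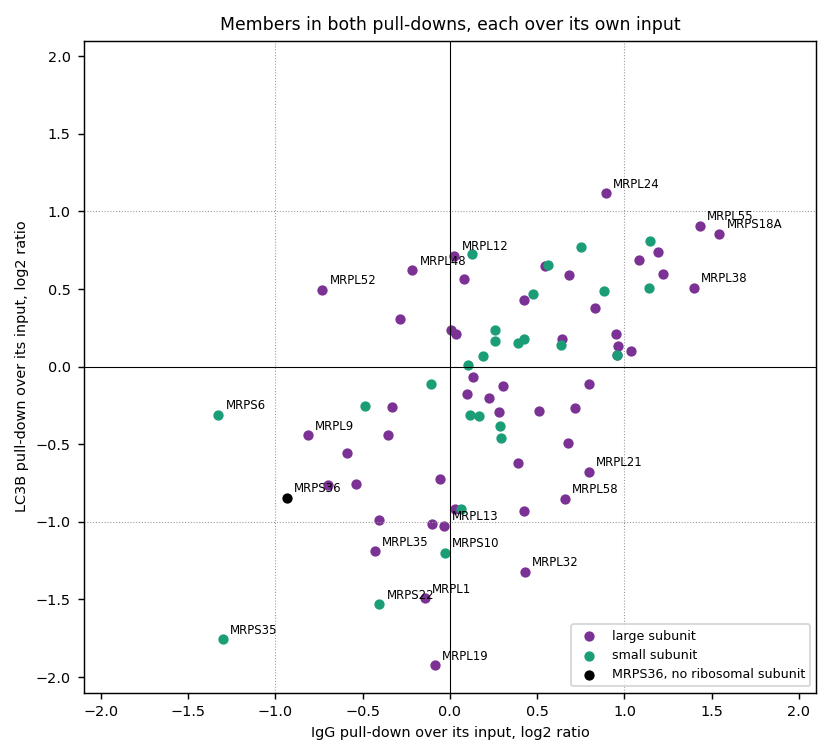
Log2 ratio of each pull-down to its own input for the 78 MRP genes, IgG on the horizontal and LC3B on the vertical axis, coloured by ribosomal subunit, with dotted lines at a ratio of 2 and of 0.5. The genes run from MRPS35 at the lower left to MRPL24, MRPL55 and MRPS18A at the upper right, and 20 genes lie at the lower right against 3 at the upper left.

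By subunit, the median log2 ratio of LC3B to IgG was -0.50 for the 51 large-subunit genes and -0.25 for the 26 small-subunit genes, and the summed ratios were 0.706 (0.700 to 0.713) and 0.779 (0.768 to 0.791). Over the LC3B input the medians were -0.12 and 0.07, and over the IgG input 0.31 and 0.26. The LC3B over IgG log2 ratios of single genes ran from -1.84 to 1.04 in the large and from -1.34 to 0.70 in the small subunit. By origin, the 46 genes with a bacterial counterpart had a median of -0.38 and the 29 mitochondria-only genes of -0.42. The MRPS18 paralogs, which share a bacterial relative but sit at different places in the ribosome, had ratios of LC3B to IgG of 0.661 (MRPS18A), 0.694 (MRPS18B) and 0.670 (MRPS18C), and of LC3B to input of 1.81, 1.10 and 0.765.

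Gene length went along with the order of the MRP genes. They span a median of 11940.5 bases in the deposited table, from 677 (MRPL41) to 351418 (MRPS22), against 34053 for protein-coding genes tested. The 26 shortest had a median log2 ratio of 0.32 with LC3B over input, the middle 26 of -0.29 and the 26 longest of -0.30, with 19, 11 and 8 genes above 1. With IgG over input the medians were 0.55, 0.21 and -0.00, with 24, 18 and 13 genes above 1. Spearman's rho between span and ratio was -0.437 with LC3B and -0.421 with IgG over the 78 genes, and Pearson's r with log span -0.447 and -0.407. Over protein-coding genes tested rho was -0.278 and -0.200. It was -0.439 and -0.153 over nuclear-encoded respiratory complex I genes, and -0.056 and -0.055 over cytosolic ribosomal protein genes. For LC3B over IgG it was -0.149 over the MRP genes. These are descriptions across genes of the same libraries, and the part of length in the pull-down ratios was not tested. Spans come from the outer gene bounds, which for MRPS22 and MRPL33 run across neighbouring genes.

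**Figure D4:**
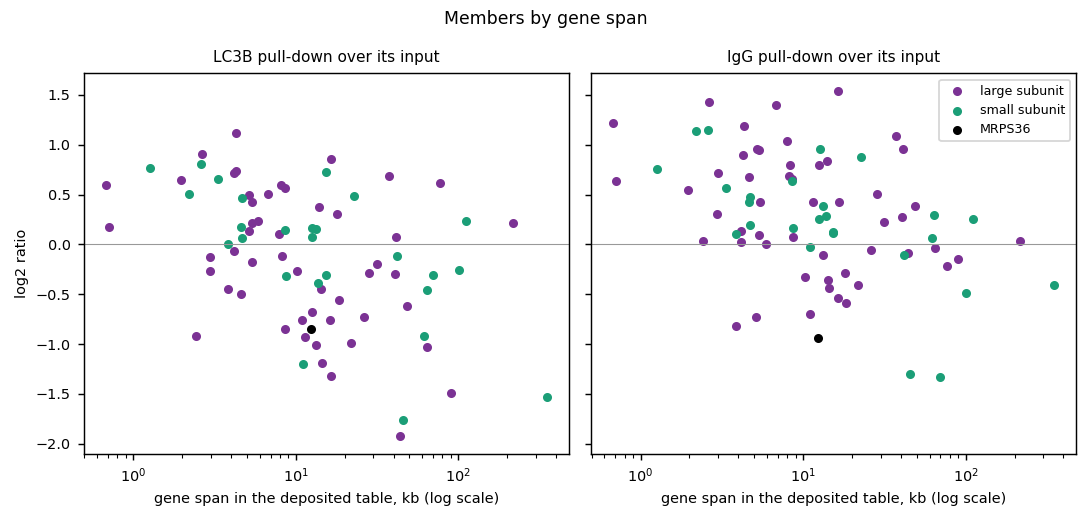
Log2 ratio to input of the 78 MRP genes against the span of the gene in kb (log scale) in the LC3B and the IgG pull-down, coloured by subunit. Points drift downward from left to right in both panels, with medians of 0.32, -0.29 and -0.30 in the shortest, middle and longest groups for LC3B, and 0.55, 0.21 and -0.00 for IgG.

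Other genes of mitochondrial translation are given by list. Of 5 further mitoribosomal proteins without an MRP symbol, 0 were called in either direction between the pull-downs (33.8% of all tested genes were called higher and 9.45% lower). Their median log2 ratio was -0.38, close to that of the MRP genes (-0.41) in this comparison. Over the LC3B input it was 0.22 (MRP genes -0.09) and over the IgG input 0.04 (MRP genes 0.27). The summed ratio over the LC3B input was 1.37, against 0.941 for the MRP genes. Of the 5, AURKAIP1 had a ratio of LC3B to IgG of 0.768 and GADD45GIP1 of 0.548, while CHCHD1 had 1.83, DAP3 1.35 and PTCD3 0.474. AURKAIP1 and GADD45GIP1 were called higher with IgG over input, at 2.19 and 2.66 (40% of the list, where 9.69% of all tested genes were). DAP3 is a GTP-binding small-subunit protein and PTCD3 a small-subunit protein with RNA-binding repeats. Of 16 translation factors, 6 were called higher with LC3B than with IgG (37.5%, where 33.8% of all tested genes were) and 0 lower, with a median of 1.07. All but MTRF1 averaged 30 CPM or more in the inputs. There the share of genes called higher was 20.9% at 30 to 100 CPM and 8.56% at 100 CPM or more. The 6 called higher included TUFM, the mitochondrial elongation factor Tu, with 1548, 1678, 1214 and 3338 reads in the IgG input, LC3B input, IgG pull-down and LC3B pull-down. Over the LC3B input, however, 0 of the 16 were called higher (1.40% of all tested genes) and 1 lower (6.25%, where 4.48% of all were). The median was -0.04, and the gene called lower was MTRF1L, a peptide release factor, at 0.322. Over the IgG input 6 were called lower (37.5%, where 33.6% of all were), with a median of -0.78. The shares called lower there were 22.7% at 30 to 100 CPM and 12.4% at 100 CPM or more.

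Of 26 factors of mitoribosome assembly and ribosomal RNA modification, 6 were called higher with LC3B than with IgG (23.1%, where 33.8% of all tested genes were) and 0 lower, with a median of 0.28. Over the LC3B input 1 was called higher (3.85%, where 1.40% of all were), RCC1L at 2.59, and 0 lower (4.48% of all). The median there was 0.07, and over the IgG input 7 were called lower (26.9%, where 33.6% of all were). Several of these genes had almost no reads with IgG: the RNA helicase gene DDX28 had 96 and 111 reads in the inputs, 0 with IgG and 230 with LC3B, and the GTPase gene NOA1 had 242, 262, 3 and 338 in the same order. No MRP gene had a count near 0 with IgG, but all lay in the classes from 30 CPM up. There 2.85% (30 to 100 CPM) and 0% (100 CPM or more) of genes had 0 reads with IgG, against 16.5% at 10 to 30 CPM. DDX28 had 11.4 and 13.0 CPM in the IgG and LC3B inputs, and NOA1 28.8 and 30.7 CPM. NSUN4 of the same list lay in the class of 30 to 100 CPM, with 30.7 and 32.2 CPM in the inputs. It had 0 reads with IgG and 289 with LC3B.

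The other 2 lists were the respiratory chain's complex I and the cytosolic ribosome. Nuclear-encoded complex I subunits had a median LC3B over IgG log2 ratio of -0.21, with 0 called higher and 2 lower of 37 (5.41%, where 9.45% of all tested genes were), and 0.35 with IgG over input. Cytosolic ribosomal protein genes had 0.64, with 17 called higher (20.2%, where 33.8% of all were) and 0 lower of 84 tested (87 in the table). Over the LC3B input they had 0.45, with 2 called higher (2.38%, where 1.40% of all were) and 0 lower (4.48% of all). Over the IgG input they had -0.34, with 0 higher (9.69% of all) and 6 lower (7.14%, where 33.6% of all were). Abundant genes were called less often. Between the pull-downs 20.9% of genes at 30 to 100 CPM in the inputs and 8.56% at 100 CPM or more were called higher. Over the IgG input 22.7% and 12.4% of these classes were called lower. The cytosolic list was not split by these classes. The summed cytosolic reads gave a ratio of LC3B to IgG of 1.39 (1.38 to 1.39), against 0.729 for the MRP genes. All tested genes had medians of 0.41, 0.01 and -0.43 in these comparisons.

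**Figure D5:**
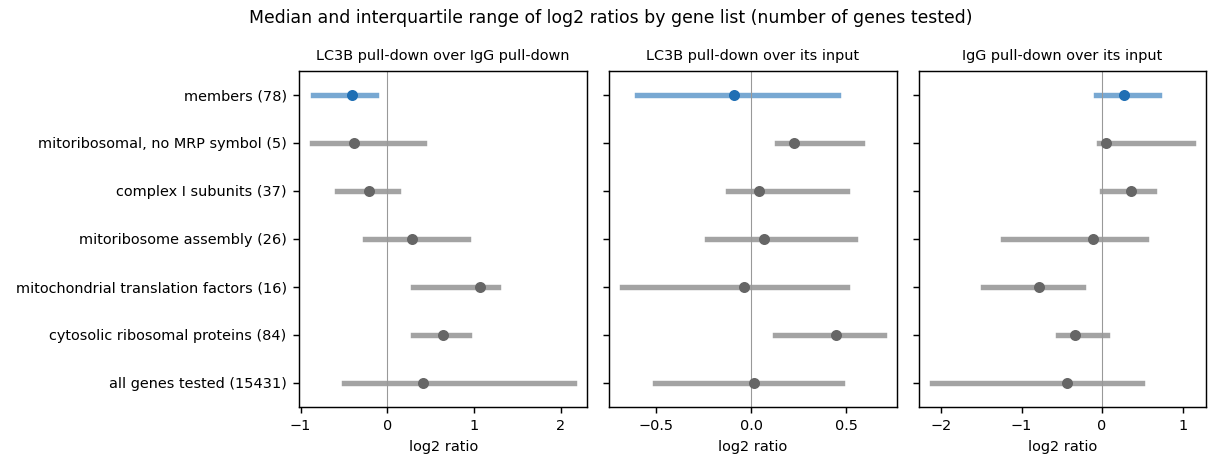
Median (point) and interquartile range (bar) of the log2 ratios of the MRP genes (members), of related gene lists and of all 15431 tested genes in 3 comparisons. For the LC3B over the IgG pull-down the MRP genes (-0.41), the other mitoribosomal proteins (-0.38) and complex I (-0.21) lie left of 0, and the cytosolic ribosomal proteins (0.64) and mitochondrial translation factors (1.07) right of it.

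Many MRP genes share their place in the genome with another gene. Of the 78, 49 overlap another gene, 23 of them on the same strand, and for 27 an overlapping gene had at least 10% of their reads in some library. Whether counting used the strand is not given in the sources used here, so reads of such pairs cannot be told apart. GCFC2 overlaps MRPL19 on the opposite strand and had 577, 485, 759 and 155 reads in the IgG input, LC3B input, IgG pull-down and LC3B pull-down, against 2279, 2312, 2509 and 736 for MRPL19. Both genes were thus lowest with LC3B. RSPH9 overlaps MRPS18A on the opposite strand, with 477, 478, 1399 and 1026 reads against 923, 1001, 3155 and 2204, so that both were highest with IgG. COPB2, which encodes a vesicle coat protein and overlaps MRPS22 on the opposite strand, had 1111, 1140, 881 and 1240 reads against 1016, 1011, 896 and 422, and there the LC3B library was low only for MRPS22.

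Among the other overlapped genes, MRPL51 shares bases with NCAPD2, MRPL28 with PGAP6, MRPL33 with BABAM2, MRPS6 with SLC5A3, MRPS17 with NIPSNAP2, MRPS12 with SARS2 and MRPS34 with EME2. The largest share was that of CACYBP, whose reads came to 586% of those of MRPS14, an opposite-strand neighbour. The table also holds 75 pseudogenes named after 34 of the MRP genes. Of these, 13 had reads, 89 to 152 in sum per library, and they reached 10% of the parent only for MRPL45 (10.5%) and MRPS31 (17.4%), whose counts are the less certain for it.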

How the data were processed

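The deposited counts are raw reads per Ensembl gene, per the file headers; their digits were grouped with commas, which were removed. TPM values (shares per transcript length) were scaled within each library by the authors, per the file headers. The tools named in the submitters' processing notes are STAR 2.7.1a and cutadapt 2.8, and the build is hg38. Not given in the sources used here are the annotation release, the counting tool and its strand setting, and how duplicates and multi-mapping reads were handled.

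Counts were divided by the library total without the mitochondrial genome. Ratios have exact conditional binomial (Clopper-Pearson) 95% intervals, which cover counting error only, since PCR reads without molecular identifiers are not independent molecules. Where a library had 0 reads no ratio was given. Genes were called when the interval lay past 2 or 0.5. Python 3.11.15, numpy 2.4.6, pandas 2.3.3 and scipy 1.17.1 were used, and figures were drawn with matplotlib 3.10.9. The calling code was tested on simulated data. Alternatives were other totals (with mitochondrial genes, TMM, median of ratios, deposited TPM), filters, thresholds, added constants, thinning, both inputs summed and leaving out the most abundant MRP gene.

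The MRP genes and lists were chosen with earlier results of these data known. Named genes are the 8 highest by input TPM and those with the most extreme interval bounds in each comparison. All called over the LC3B input, paralogs and functional cases, and genes overlapped by another with at least 10% of their reads are named too. The other genes called between the pull-downs were named after their values were seen. So were AURKAIP1, GADD45GIP1, TUFM, DDX28, NOA1, NSUN4, PTCD3, DAP3 and CHCHD1. Protein sequences were not used here.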

Additional observations from a re-analysis of the deposited data

How the results depend on the processing

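Of 139 results recomputed under an alternative, 102 stayed within 1.5 times (counts), the log2 SD of the inputs (medians) or the counting interval (sums) and 37 moved, among them 1 median that changed sign. With mitochondrial-genome reads in the totals, the LC3B pull-down over its input had 3 MRP genes called higher and 3 lower, where 880 and 250 of 15093 tested genes were. The median log2 ratio was 0.23 and the summed ratio 1.18. IgG over its input had 17 higher and 0 lower, where 2355 and 4425 of all tested genes were. Its median was 0.62 and its summed ratio 1.62. Under the same totals the summed ratio was 0.736 between the pull-downs and 1.01 between the inputs. TMM scaling gave summed ratios of 0.707 (LC3B over IgG), 0.929 (LC3B over input), 1.24 (IgG over input) and 0.945 (inputs); median-of-ratios scaling gave 0.672, 0.930, 1.34 and 0.965, with a median of -0.52 for LC3B over IgG. Over the LC3B input 0 MRP genes were called higher under TMM, median-of-ratios, thinning to the smallest total, or bounds of 4 and 0.25. Of all tested genes 201, 203, 218 and 13 were. The bounds of 4 and 0.25 left 0 lower in each pull-down comparison and 0 higher with IgG over input. Of all tested genes they left 377 lower for LC3B over IgG and 35 for LC3B over input. With IgG over input they left 3610 lower and 366 higher. The deposited TPM, as point ratios without intervals, gave 2 higher for LC3B over IgG, where 5947 of 15431 tested genes were. For LC3B over input 13 were lower, where 2157 of all tested genes were. The median for IgG over input was 0.14, and summed ratios were 0.794 (LC3B over IgG), 1.18 (IgG over input) and 0.998 (inputs). Without intervals 1 gene, MRPL52, was higher with LC3B than with IgG, where 6103 of all tested genes were. Without MRPL13, the MRP gene with the most input reads, summed ratios were 0.737, 0.959 and 1.28. Beyond what each alternative's construction shows, the cause was not tested. No paired analysis was possible because each group holds 1 library. Depth limits little here, with at least 251 reads per MRP gene and library; the single library per group is the limit.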

Other observations

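Divergent pairs were counted where protein-coding genes on opposite strands start within 1000 bases of each other and do not overlap at their starts. Of the 78 MRP genes, 16 (20.5%) were in such a pair, against 1412 of 12665 protein-coding genes tested (11.1%). MRPL46 and MRPS11 form such a pair with each other, 63 bases apart. Partners did not always lie with their MRP gene. FAU, which encodes a cytosolic ribosomal protein and starts 6 bases from MRPL49, had a ratio of LC3B to IgG of 1.74 beside 0.510 for MRPL49. IGHMBP2, a helicase gene 7 bases from MRPL21, had 0.245 beside 0.339, with 60, 72, 363 and 94 reads in the IgG input, LC3B input, IgG pull-down and LC3B pull-down. NDUFS6 of complex I, 34 bases from MRPL36, had 1.04 beside 0.502, and NDUFB5, 41 bases from MRPL47, had 0.603 beside 0.896. EME1, a DNA repair nuclease subunit 13 bases from MRPL27, had 229, 212, 17 and 313 reads, few only with IgG, while MRPL27 was high only with IgG, at 184, 178, 357 and 206 CPM.

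The ratio of a gene's count to its deposited TPM gives the transcript length used for it, up to a constant per library. Relative to the median protein-coding gene, the MRP transcripts had a median length of 0.479. This length moved by over 10% from the input in 7 of 78 MRP genes with LC3B (8.97% in all), most for MRPL13, by 36.3%, whereas 13.4% of protein-coding genes became shorter and 14.8% longer. Between the inputs, MRPS36 became 25.0% longer and MRPL38 fell by 14.2%. The length of MRPL13 fell by 5.59% between the inputs.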
